A study of Mus musculus with 6 samples.

Results

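Haematopoietic growth factor receptors are the cell surface proteins through which colony-stimulating factors, stem cell factor, Flt3 ligand and interleukin-3 act on blood-forming and myeloid cells. The 7 genes described here, Csf1r, Kit, Flt3, Csf2ra, Il3ra, Csf2rb and Csf3r, were found by taking every non-control probe whose gene name in the scanner files was one of these symbols. That gave 15 of the 56605 non-control probes on the array. All 7 genes had at least 1 probe that passed the filter on dim probes and were among the 20817 genes tested.

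BALB/c mice, which are inbred, had the dye FITC, a sensitiser that fluoresces, painted 2 times onto the mucosa under the tongue, and 3 cell fractions were then sorted from this sublingual mucosa. Fr1 was CD11c+CD206-, Fr2 was CD11c-F4/80+CD206- and Fr3 was F4/80+CD206hi, so that all groups shared the painting, a 30 min digestion of the dorsal tongue with collagenase and DNase, and the sort. Each fraction had 2 arrays, which the series design describes as coming from independent experiments. The age of the mice and the number of mice per sort are not given in the sources used here, and no unpainted mice were analysed.

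The receptors fall into structural families. Csf1r, Kit and Flt3 are receptor tyrosine kinases of the platelet-derived growth factor receptor family, which dimerise around their ligand and phosphorylate each other. Csf2ra and Il3ra are the ligand-specific alpha chains of the GM-CSF and interleukin-3 receptors, and both signal through a common beta chain, encoded by Csf2rb, that carries the kinase Jak2. Csf3r is the G-CSF receptor, a single-chain cytokine receptor. In myeloid tissue Csf1r is known as a marker and survival receptor of macrophages and monocytes, Flt3 as the receptor that drives dendritic cell development, Kit as a receptor of progenitors, mast cells and melanocytes, and Csf3r as the receptor of the neutrophil lineage.

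Levels below are log2 of the processed spot intensity over the array's 75th percentile of all non-control probes, so that 0 is that percentile and 1 unit is a doubling. Between 44.6% and 52.4% of the spots on an array were well above background, the scanner software's own flag, and no spot was saturated. The 2 arrays of a fraction correlated across the genes tested, with Pearson's r of 0.883 for Fr1, 0.898 for Fr2 and 0.796 for Fr3. The Fr1 and Fr3 arrays were on a common slide and both Fr2 arrays on another, so a difference between Fr2 and either other fraction cannot be told apart from a difference between slides. Replicate arrays also differed by the base composition of the probes: in Fr3, genes whose probe held over 30% T had a median difference of -0.28 (replicate 2 minus replicate 1), against 0.59 for the other genes. In Fr1 these medians were -0.39 and 0.40, and in Fr2 -0.04 and 0.12.

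The genes of the sorted antigens were looked at first. Itgax, which encodes CD11c, had levels of 3.05 and 2.66 in Fr1, 3.10 and 1.53 in Fr2, and 0.52 and 1.29 in Fr3. Mrc1, which encodes CD206, was not well above background on either Fr1 array, and had levels of 0.98 and 0.65 in Fr2 and of 4.10 and 3.01 in Fr3. Adgre1, which encodes F4/80, was well above background on all 6 arrays, at 4.83 and 4.70 in Fr1, 6.27 and 6.29 in Fr2, and 5.78 and 5.66 in Fr3. Itgax in Fr2 thus overlapped with Fr1, and Mrc1 mRNA was above background in the CD206-negative Fr2.

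None of the 7 receptors passed the test in any of the 3 comparisons (limma across all genes, Benjamini-Hochberg adjusted p under 0.05). The background was also low. The share of all genes called was 0% for Fr1 minus Fr2, 0.0048% for Fr1 minus Fr3 and 0.0048% for Fr2 minus Fr3, which is 0, 1 and 1 gene. These counts changed when single arrays were left out. In such a fit, a fraction left with 1 array is assumed to vary like the others. Without the first Fr3 array, 1395 genes were called for Fr1 minus Fr3 and 933 for Fr2 minus Fr3, and still no receptor. For Fr1 minus Fr2 it was 3 genes without either of the Fr3 arrays. Leaving out an Fr1 or Fr2 array gave 0 genes in all 3 comparisons, and leaving out the second Fr3 array gave 0 in both comparisons with Fr3.

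At an unadjusted p under 0.05, 1 receptor, Kit, differed for Fr1 minus Fr3, where 8.15% of all genes did. No receptor did so for Fr1 minus Fr2 or Fr2 minus Fr3, where the shares of all genes were 9.78% and 8.91%. The comparisons share arrays and are not independent of each other. With 2 arrays a fraction, the standard errors of the receptors' differences lay between 0.55 and 0.74 log2 units, so that a difference that missed the threshold does not show equal levels.

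**Figure D1:**
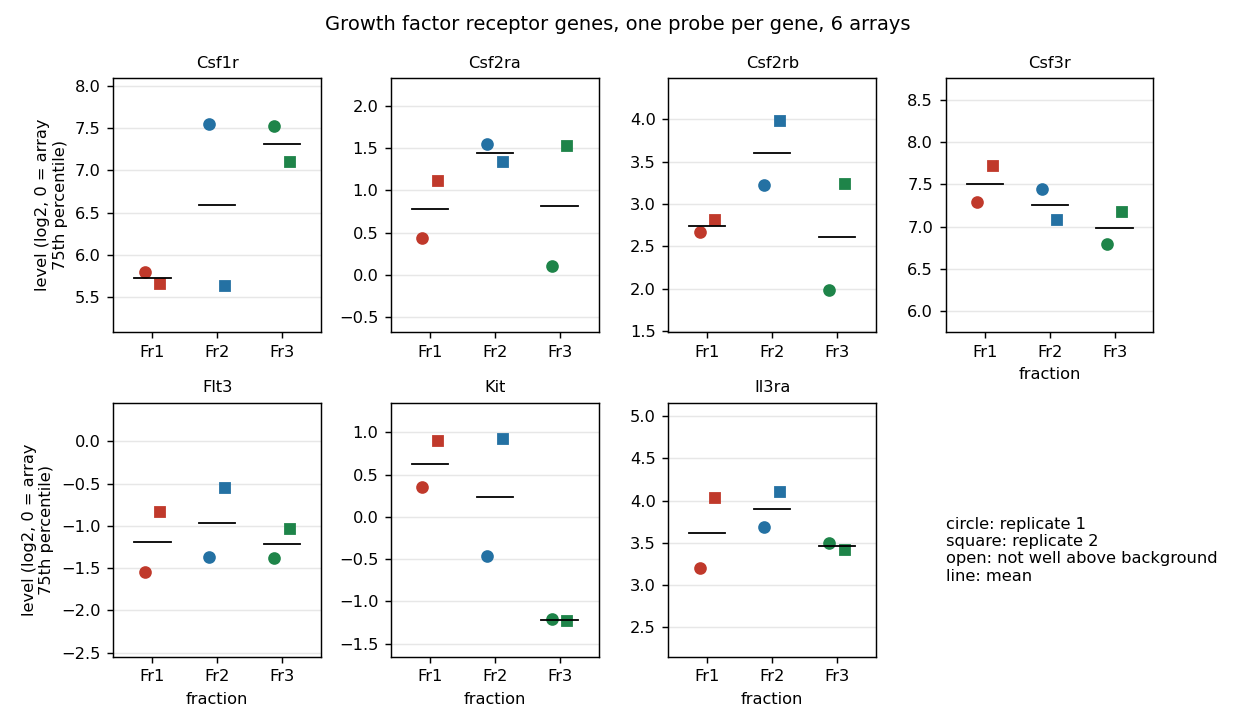
Level of the 7 receptor genes on each of the 6 arrays (vertical axis, log2 with 0 at the array's 75th percentile; horizontal axis, fraction). Circles are replicate 1, squares replicate 2 and lines the mean of 2 arrays; each gene has its own range on the vertical axis. Csf1r sits between 5.65 and 5.80 on the Fr1 arrays, below both Fr3 arrays, and Kit is lowest on both Fr3 arrays.

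Csf1r, the receptor for CSF1 and interleukin-34, had bright signals in all 3 fractions. Its main probe, on chromosome 18, had levels of 5.80 and 5.65 in Fr1, 7.55 and 5.63 in Fr2, and 7.53 and 7.10 in Fr3. Both Fr1 arrays lay below both Fr3 arrays, whereas the Fr2 arrays spread over the whole range. The means were 5.73 ± 0.10 in Fr1, 6.59 ± 1.36 in Fr2 and 7.31 ± 0.30 in Fr3 (SD, n = 2 each), and in this rising order neither pair of neighbours was separated.

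The Csf1r difference was -1.59 ± 0.74 for Fr1 minus Fr3 (log2, SE, n = 2 each), or 3.00-fold lower in Fr1, which did not pass the test (limma, unadjusted p = 0.0716, adjusted p = 0.622). For Fr1 minus Fr2 it was -0.86 ± 0.74 (adjusted p = 0.744) and for Fr2 minus Fr3 -0.73 ± 0.74 (adjusted p = 0.732). A second Csf1r probe, which lies upstream of the first on the same strand, had levels of 2.83 and 3.03 in Fr1, 3.30 and 2.89 in Fr2, and 3.07 and 4.02 in Fr3. There too the Fr1 arrays lay below both Fr3 arrays, by a difference of -0.62 ± 0.61 for Fr1 minus Fr3 (limma on single probes, adjusted p = 0.793). The size of the difference thus depended on the probe.

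Macrophage marker genes, like Csf1r, had higher values in Fr3 than in Fr1. Over 9 markers, the summed linear level was 57.6 and 56.8 in Fr1, 170 and 116 in Fr2, and 308 and 299.6 in Fr3. Mrc1 and Adgre1, which encode sorted antigens, are among the 9, so part of this contrast follows from the sort. The largest part of the sum was Adgre1 in Fr1 and Cd163 in Fr3. C1qb overlapped, with 2.28 and 3.07 in Fr1 and 2.68 and 3.44 in Fr3. In Fr1 7 of the 9 had a probe well above background, all but Mertk and Mrc1, in Fr2 8, all but Mertk, and in Fr3 all 9. Markers of monocytes, cells that also carry this receptor, went the other way, with sums of 45.2 and 18.7 in Fr1, 107 and 133 in Fr2, and 7.30 and 11.7 in Fr3 over 6 genes. The part of either in the Csf1r values was not tested. In sorted samples, fewer cells of a type and less RNA per cell cannot be told apart.

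Kit encodes the receptor for stem cell factor. Of its 3 probes 1 passed the filter, and this probe holds 35% T, the base whose share went with the replicate differences given above. Of the 20817 genes tested, 8591 had a probe over 30% T. The replicate differences of Kit itself (replicate 2 minus replicate 1) were 0.55 in Fr1, 1.39 in Fr2 and -0.03 in Fr3. Each lay above the median of such genes in its fraction. The 30-base stretch with the most T, from base 30 to base 59 of the 60, is shown with each T in capitals (15 of the 30). The probe lies at chr5:76052394-76052453 on the plus strand of mm9.
Kit bases 30 to 59: gaaTTTTgTcTTggaTaTTcTTgaaagTTT

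Kit had levels of 0.35 and 0.90 in Fr1, -0.46 and 0.93 in Fr2, and -1.21 and -1.24 in Fr3. Both Fr3 arrays were below all other arrays, and Fr1 and Fr2 overlapped. The means were 0.63 ± 0.39 in Fr1, 0.23 ± 0.98 in Fr2 and -1.22 ± 0.02 in Fr3 (SD, n = 2 each), so that in this order only the last step separated the arrays.

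For Fr1 minus Fr3 the difference of Kit was 1.85 ± 0.66 (log2, SE), or 3.60-fold higher in Fr1. It was the only receptor difference with an unadjusted p under 0.05 and did not pass the test (limma, unadjusted p = 0.0269, adjusted p = 0.524). For Fr2 minus Fr3 it was 1.45 ± 0.66, or 2.74-fold (adjusted p = 0.583), and for Fr1 minus Fr2 0.40 ± 0.66 (adjusted p = 0.886). Without the second Fr2 array the Fr2 minus Fr3 value was 0.76, and without the first 2.15. With the normexp background correction, which adds an offset to every spot, the differences against Fr3 were 0.54 and 0.46. The other 2 Kit probes, both designed on a single cDNA clone, were not well above background on any array.

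Cells known for Kit were looked for through their markers. Of 8 mast cell and basophil genes, 3 had a probe well above background in Fr1, 4 in Fr2 and 4 in Fr3, and the defining genes Cpa3 and Fcer1a had none in any fraction. Their summed linear level was 10.6 and 24.0 in Fr1, 14.5 and 48.6 in Fr2, and 8.09 and 6.57 in Fr3, so that this sum too was lowest on the Fr3 arrays. On each array the largest part came from Hdc, which encodes histidine decarboxylase, at levels of 2.92 and 4.28 in Fr1, 3.58 and 5.28 in Fr2, and 2.43 and 1.67 in Fr3. Tpsb2 had 0.20 and 1.99 in Fr1, 0.91 and 3.17 in Fr2, and 1.25 and 1.08 in Fr3. Unlike the sum and Kit, it was not lowest on the Fr3 arrays. Ms4a2 and Cma1 had a probe well above background in Fr3 alone, at -1.86 and -1.54 on the second Fr3 array. Mcpt4 had such a probe in Fr2 alone, and Mcpt8 in Fr1 and Fr2. The 4 melanocyte genes summed to 12.1 and 10.8 in Fr1, 6.74 and 7.15 in Fr2, and 8.72 and 12.7 in Fr3, with Pmel not well above background in any fraction. Whether such cells gave the Kit signal was not tested.

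Flt3, the receptor for Flt3 ligand, was near the lower limit of the assay. The kept probe, designed on a cDNA clone, had levels of -1.54 and -0.84 in Fr1, -1.36 and -0.56 in Fr2, and -1.38 and -1.04 in Fr3. The arrays of all fractions overlapped, and the differences were -0.23 ± 0.60 for Fr1 minus Fr2, 0.02 ± 0.60 for Fr1 minus Fr3 and 0.25 ± 0.60 for Fr2 minus Fr3 (log2, SE; limma, adjusted p = 0.932, 0.998 and 0.891). The means, in the order Fr2, Fr1, Fr3, were closer to each other than the arrays of one fraction. The other probe, designed on the RefSeq transcript, was well above background only on the second Fr2 array, at -1.95.

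Dendritic cell genes were present beside this low Flt3 signal. Of 8 conventional dendritic cell genes, 8 had a probe well above background in Fr1, 7 in Fr2 and 6 in Fr3, and Itgae had none in Fr2 or Fr3 and Clec9a none in Fr3. Their summed linear level was 23.3 and 13.9 in Fr1, 41.7 and 27.8 in Fr2, and 22.5 and 56.4 in Fr3, and on each array the largest part of it was Cd209a, a lectin gene also known in macrophages, at levels of 3.40 and 2.61 in Fr1, 5.06 and 4.22 in Fr2, and 4.14 and 5.78 in Fr3. The median difference over the 8 genes ran the other way, at 0.91 for Fr1 minus Fr2 and 2.37 for Fr1 minus Fr3. The 6 plasmacytoid dendritic cell genes summed to 187 and 227 in Fr1, 123 and 137 in Fr2, and 163 and 212 in Fr3, of which Siglech was by far the largest part. Their median difference was 1.14 for Fr1 minus Fr2 and 0.31 for Fr1 minus Fr3, and of them Ccr9 and Spib were above background in Fr1 alone. The part of such cells in the Flt3 signal was not tested.

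**Figure D2:**
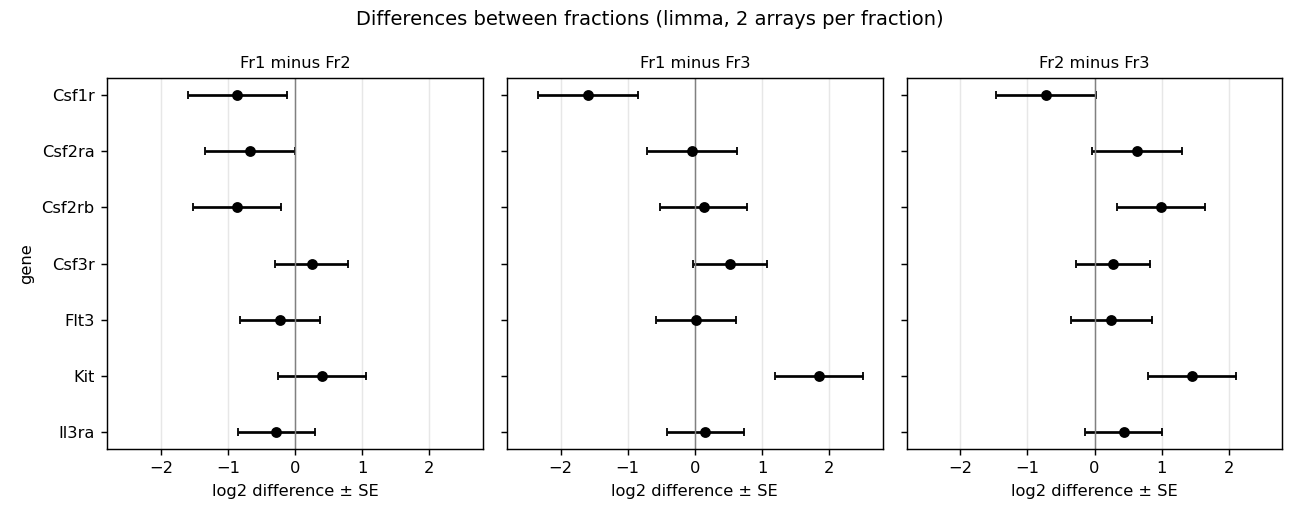
Differences between fractions for the 7 receptor genes (horizontal axis, log2 difference with its standard error from limma; 2 arrays per fraction; 1 panel per comparison). Kit lies farthest right in the comparisons with Fr3, at 1.85 and 1.45, and Csf1r farthest left for Fr1 minus Fr3, at -1.59.

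Csf2ra encodes the alpha chain that binds GM-CSF, a cytokine of macrophages, granulocytes and dendritic cells. Its single probe, at chr19:61300336-61300395 on the minus strand, had levels of 0.44 and 1.11 in Fr1, 1.54 and 1.34 in Fr2, and 0.10 and 1.53 in Fr3. The Fr1 arrays lay below both Fr2 arrays, whereas the Fr3 arrays overlapped with both other fractions. The difference was -0.67 ± 0.67 for Fr1 minus Fr2, -0.04 ± 0.67 for Fr1 minus Fr3 and 0.63 ± 0.67 for Fr2 minus Fr3 (log2, SE; limma, adjusted p = 0.785, 0.996 and 0.743). The order of the means was Fr2, Fr3, Fr1, and neither pair of neighbours was separated.

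Il3ra encodes the alpha chain that binds interleukin-3. The brighter of its 2 kept probes had levels of 3.20 and 4.03 in Fr1, 3.69 and 4.11 in Fr2, and 3.50 and 3.42 in Fr3. Both Fr2 arrays lay above both Fr3 arrays, by 0.44 ± 0.57 (log2, SE; limma, adjusted p = 0.794), and the Fr1 arrays bracketed the Fr3 arrays. The dimmer probe ran the other way for this comparison. It had -1.94 and -0.73 in Fr1, -2.36 and -1.90 in Fr2, and -1.75 and -1.19 in Fr3, was above background on 4 of the 6 arrays, and gave -0.66 ± 0.66 for Fr2 minus Fr3 (adjusted p = 0.720). The 2 probes therefore gave no common order of the fractions, and Il3ra is given here without one.

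Csf2rb, the beta chain through which GM-CSF, interleukin-3 and interleukin-5 all signal, had 4 probes, of which 3 passed the filter. The mouse carries a near-copy on the same chromosome, Csf2rb2, a beta chain known to pair with the interleukin-3 receptor alone. Their probes are shown where they are most alike. Over a 30-base stretch the main Csf2rb probe, at chr15:78181168-78181227 on the plus strand of mm9, and the Csf2rb2 probe, at chr15:78113126-78113185 on the minus strand, had 27 identical bases, and the capitals mark the 3 that differ.
Csf2rb bases 30 to 59: ggcagatcaaAtgtCccttggtctCtgttc
Csf2rb2 bases 12 to 41: ggcagatcaaGtgtTccttggtctAtgttc
Another Csf2rb probe is shown because its 60 bases span 263 bases of the genome, chr15:78176856-78177118, as a probe across an exon junction does.
Csf2rb junction probe: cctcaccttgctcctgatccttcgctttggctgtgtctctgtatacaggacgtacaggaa

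The main Csf2rb probe had levels of 2.67 and 2.81 in Fr1, 3.22 and 3.99 in Fr2, and 1.98 and 3.23 in Fr3. The Fr1 arrays lay below both Fr2 arrays, and the Fr3 arrays overlapped with each of the others. The difference was -0.86 ± 0.65 for Fr1 minus Fr2, 0.13 ± 0.65 for Fr1 minus Fr3 and 0.99 ± 0.65 for Fr2 minus Fr3 (log2, SE; limma, adjusted p = 0.700, 0.984 and 0.628). The Fr2 minus Fr3 value moved most with the Fr3 arrays, and was 0.37 without the first and 1.62 without the second. By means the order was Fr2, Fr1, Fr3, and Fr1 and Fr3 were not separated.

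The junction probe did not show that order. Its levels were 1.84 and 2.29 in Fr1, 1.82 and 1.79 in Fr2, and 1.81 and 2.85 in Fr3, so that Fr2 was the lowest fraction, and Fr2 minus Fr3 was -0.52 ± 0.62 (adjusted p = 0.762). The third probe carries accessions of both genes in the file and had -0.72 and -0.90 in Fr1, -1.25 and -0.54 in Fr2, and -1.12 and 0.30 in Fr3. Csf2rb2 itself had 0.70 and 0.50 in Fr1, 0.0025 and 1.32 in Fr2, and -0.07 and 0.69 in Fr3. None of these separated Fr2 from both other fractions. How much Csf2rb2 RNA bound to the main Csf2rb probe was not tested, and the direction of this probe's differences is uncertain.

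**Figure D3:**
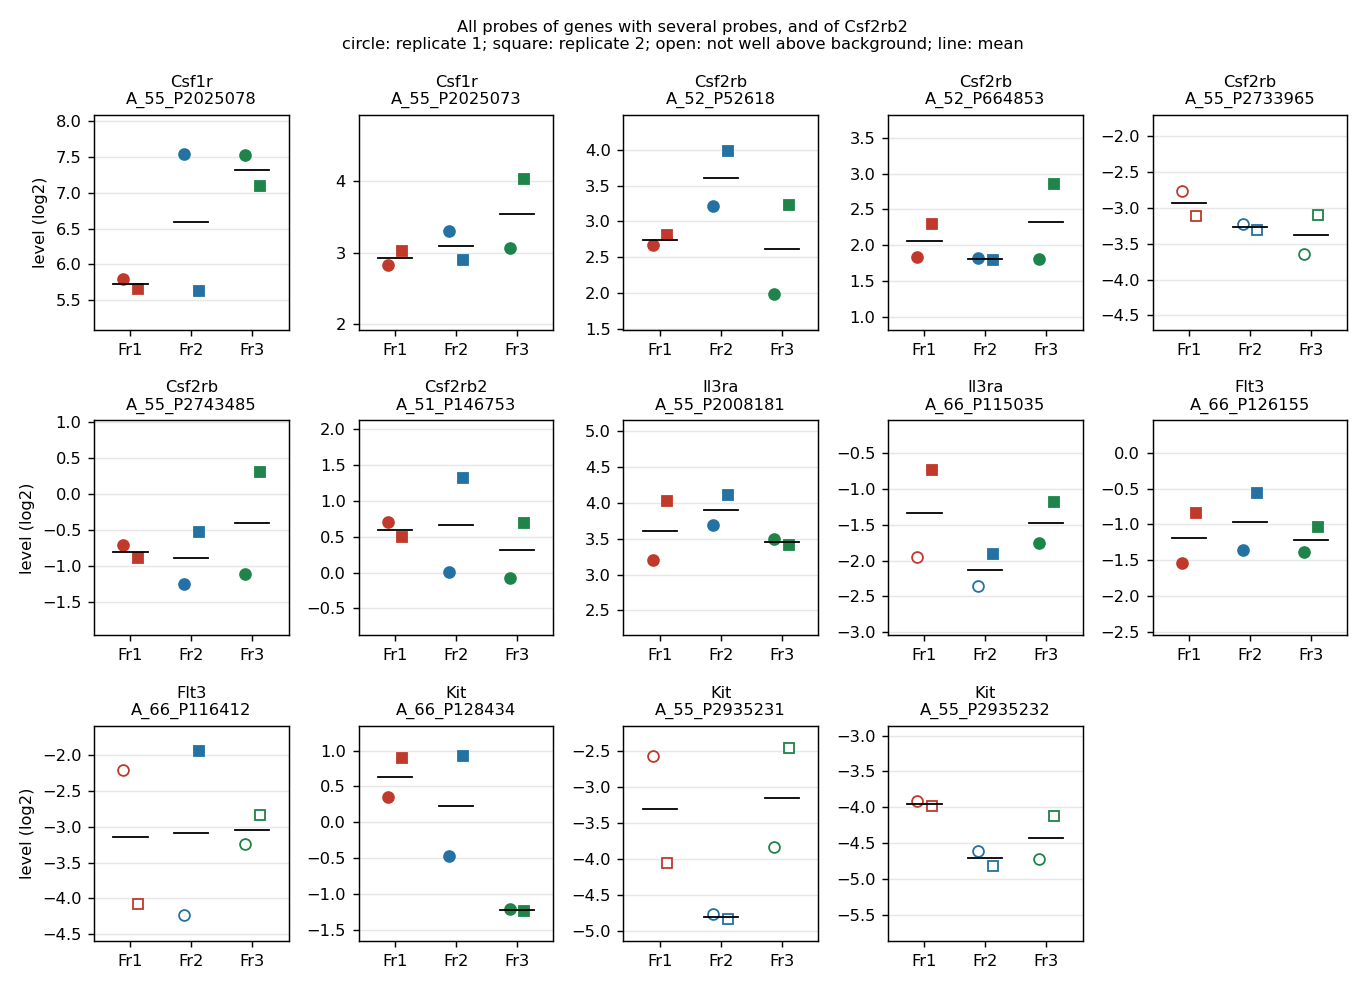
Every probe of the receptor genes with several probes, and the probe of Csf2rb2, on the 6 arrays (vertical axis, level in log2; horizontal axis, fraction; circles replicate 1, squares replicate 2, open symbols not well above background, lines means). The Csf2rb probes differ in which fraction is highest, as do the Il3ra probes, and 2 of the 3 Kit probes are open on all arrays.

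Csf3r, the G-CSF receptor, had a single probe, with bright signals on all 6 arrays. Its last 30 bases are shown because they hold a word from a family of genomic repeats. The 15 bases in capitals, bases 44 to 58 of the probe at chr4:125721478-125721537 on the plus strand of mm9, belong to the consensus of the mouse B1 element, a short interspersed repeat.
Csf3r bases 31 to 60: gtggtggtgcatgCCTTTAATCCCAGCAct
Searched on both strands, CCTTTAATCCCAGCA was found in 10 of 27025 RefSeq promoter windows of 300 bases (0.037%; GRCm38.p6). Over all probes on the array, the most common word of a probe was found in a median of 1 window, and 907 probes (1.6%) held a word found in at least 10. Among the receptor probes, a Kit probe held a more common word, found in 50 windows. That Kit probe was not well above background on any array.

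Csf3r had levels of 7.29 and 7.72 in Fr1, 7.44 and 7.08 in Fr2, and 6.79 and 7.18 in Fr3. Both Fr1 arrays lay above both Fr3 arrays, and Fr2 overlapped with both. The difference was 0.25 ± 0.55 for Fr1 minus Fr2, 0.52 ± 0.55 for Fr1 minus Fr3 and 0.28 ± 0.55 for Fr2 minus Fr3 (log2, SE; limma, adjusted p = 0.919, 0.816 and 0.868). In the order Fr1, Fr2, Fr3 the means, 7.51, 7.26 and 6.98, had no pair of neighbours apart.

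Neutrophil genes, by contrast, all had their highest mean in Fr2. The 9 markers, among them S100a8, S100a9 and Camp, had fraction means that spanned 1.04 to 5.56 log2 units, against a span of 0.52 for Csf3r, and 9 of 9 peaked in Fr2. Their summed linear level was 146 and 158 in Fr1, 621 and 684 in Fr2, and 62.9 and 31.8 in Fr3. Retnlg, also among the 9 markers, had a mean of 2.58 in Fr1, 6.54 in Fr2 and 1.01 in Fr3.

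The other probes on the array that hold the same 15-base word were then listed, a comparison chosen after the Csf3r values had been seen. There were 6 of them, on 5 named genes or gene models and a transcript cluster, and 5 carried the word in the same direction. All 6 were well above background on all 6 arrays. Their fraction means spanned 0.17 to 0.74 log2 units, and in 6 of 6 the highest mean was in Fr1, as for Csf3r. How many of all probes peaked in Fr1, or in Fr2 as the neutrophil genes did, was not determined, so these counts have no background. For Nxnl1 and Cpd the lowest mean was in Fr2, and not in Fr3 as for Csf3r. The probe for Slc10a1, a bile acid transporter of the liver, had a lowest level of 10.1 and a highest of 10.6. Its Fr1 minus Fr2 difference was 0.05. Whether the Csf3r signal came from Csf3r RNA alone was not tested.

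**Figure D4:**
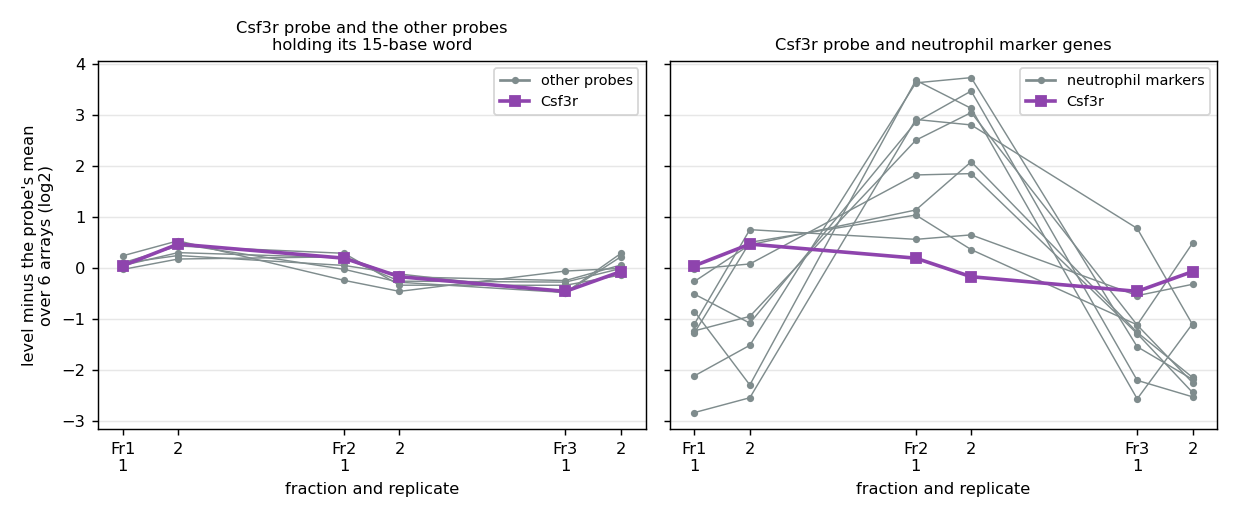
Level of the Csf3r probe on each array minus its mean over the 6 arrays (log2, vertical axis; arrays by fraction and replicate, horizontal axis), beside the 6 other probes that hold its 15-base word (left) and the 9 neutrophil genes (right). The left lines have their highest means in Fr1, as Csf3r does, but Nxnl1 and Cpd have their lowest in Fr2. On the first Fr2 array Nxnl1 is at -0.24 and Csf3r at 0.19. The right lines have their highest means in Fr2. All are values relative to each probe's own mean and not levels.

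Seen as a group, the receptors did not stand out from the other genes by separated arrays. For Fr1 minus Fr2, 2 of 7 had arrays that did not overlap, both lower in Fr1 (Csf2ra and Csf2rb), where 45% of all genes did not overlap, 22.7% higher and 22.2% lower in Fr1. For Fr1 minus Fr3 it was 3 of 7, Csf3r and Kit higher and Csf1r lower in Fr1, against 35.6% of all genes, 13.7% higher and 21.9% lower in Fr1. For Fr2 minus Fr3 it was 2 of 7, Kit and Il3ra, both higher in Fr2, against 42% of all genes, 19.4% higher and 22.6% lower in Fr2. The median difference of the 7 was -0.28, 0.13 and 0.44 in these comparisons, against 0.04, -0.05 and -0.08 over all genes.

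Most ligand genes of these receptors were dim in the sorted cells. Of 8 ligand genes listed, 3 were tested, and Il34, Csf2, Csf3, Il3 and Il5 had no probe that passed the filter on dim probes. No gene of the pathway lists passed the test in any comparison. Flt3l, the gene of Flt3 ligand, had levels of 0.53 and 1.11 in Fr1, 3.56 and 4.35 in Fr2, and 2.17 and 3.08 in Fr3, with no overlap between fractions. Its difference was -3.13 ± 0.63 for Fr1 minus Fr2 (log2, SE; limma, adjusted p = 0.291) and -1.80 ± 0.63 for Fr1 minus Fr3 (adjusted p = 0.521). Flt3l thus spanned more between fractions than its receptor gene did.

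Csf1, which encodes the main ligand of Csf1r, had levels of 1.08 and 1.28 in Fr1, 2.03 and 1.78 in Fr2, and 0.38 and 0.07 in Fr3. It was lowest in Fr3, where the Csf1r mean was highest, with a difference of 1.68 ± 0.53 for Fr2 minus Fr3 (adjusted p = 0.420). Kitl, the gene of stem cell factor, lay between -2.59 and -0.18 on all arrays and overlapped in every comparison.

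Among 10 related receptors, 8 were tested and none was called. Il5ra, the alpha chain for interleukin-5 that shares the Csf2rb beta chain, had 0.43 and 0.29 in Fr1, 0.97 and 2.88 in Fr2, and -0.15 and 0.39 in Fr3. The summed level of 7 eosinophil genes, markers of cells that carry this chain, was likewise highest on both Fr2 arrays. The sums were 23.5 and 24.0 in Fr1, 98.7 and 189 in Fr2, and 8.21 and 14.5 in Fr3. Singly, Epx and Ccr3 did not follow the sum. Epx peaked on the second Fr1 array, at 0.24, against 0.23 and -0.53 for Fr2. Ccr3 on that Fr1 array, at 2.11, exceeded its level on the first Fr2 array, 1.82. The part of eosinophils in the Il5ra values was not tested. Il5ra was thus highest on both Fr2 arrays and overlapped between Fr1 and Fr3. Il7r, the interleukin-7 receptor alpha chain, had 1.61 and 2.40 in Fr1, 1.30 and -2.26 in Fr2, and -0.81 and 0.24 in Fr3. Both Fr1 arrays were above all others. Genes of T and NK cells, in which Il7r is well known, had their highest sums in Fr1. Over 6 genes these were 20.0 and 14.8 in Fr1, 2.62 and 4.13 in Fr2, and 2.69 and 3.66 in Fr3. The largest part in Fr1 was Gzma, at levels of 3.48 and 2.97, and Gzmb, Il2rb and Icos were also highest on both Fr1 arrays. Cd3e overlapped between all fractions, at 0.61 and 1.26 in Fr1, 0.57 and 1.20 in Fr2, and 0.12 and 1.13 in Fr3. The part of such cells in the Il7r values was not tested. Il6st, the shared gp130 chain of the interleukin-6 family, had 1.19 and 1.20 in Fr1, 1.13 and 0.09 in Fr2, and 2.63 and 2.15 in Fr3.

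Of 23 signal transducers all were tested. Tyrobp, the adaptor DAP12, which takes part in Csf1r signalling, had 6.34 and 6.39 in Fr1, 7.82 and 8.01 in Fr2, and 6.11 and 6.13 in Fr3. Pik3cb, a catalytic subunit of phosphoinositide 3-kinase, had 1.28 and 0.21 in Fr1, 0.99 and 1.83 in Fr2, and -0.61 and -1.42 in Fr3. Both had their highest mean in Fr2, with Fr2 minus Fr3 at 1.80 ± 0.52 for Tyrobp and 2.43 ± 0.67 for Pik3cb (log2, SE; limma, adjusted p = 0.367 and 0.347).

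For these transducers the arrays did not overlap in 15 of 23 genes for Fr1 minus Fr2, of which 13 were lower in Fr1, and in 15 of 23 for Fr2 minus Fr3, of which 12 were higher in Fr2. Over all genes 22.2% were lower in Fr1 without overlap in the first comparison and 19.4% higher in Fr2 in the other. Both comparisons hold the Fr2 arrays, and with them the slide. For Fr1 minus Fr3, which shared a slide, 10 of 23 did not overlap, with 4 higher and 6 lower in Fr1, against 35.6% of all genes, 13.7% higher and 21.9% lower. The median difference of the 23 was -0.67, 0.07 and 0.47 for Fr1 minus Fr2, Fr1 minus Fr3 and Fr2 minus Fr3.

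Of 12 inhibitors of receptor signalling, Dok2, an adaptor that damps Ras signalling, was not well above background on either Fr1 array. Its signal exceeded that of Fr1 by at least 8.17-fold in Fr2 and by at least 5.98-fold in Fr3 (limma, adjusted p = 0.307 and 0.313 for the measured values). For these bounds each Fr1 array was given Dok2's own signal or the lowest signal above background, whichever was higher. Spred1, another inhibitor of the Ras pathway, had 3.23 and 3.20 in Fr1, 1.87 and 0.17 in Fr2, and 3.55 and 4.18 in Fr3. Inpp5d, the inositol phosphatase SHIP1, had 0.66 and 1.62 in Fr1, 0.77 and 0.88 in Fr2, and -1.66 and -0.24 in Fr3. Spred1 was thus lowest on both Fr2 arrays and Inpp5d on both Fr3 arrays.

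Of 11 lineage transcription factors all were tested. Cebpe, a factor of granulocyte maturation, had 0.66 and 1.43 in Fr1, 2.82 and 3.60 in Fr2, and -0.47 and -1.66 in Fr3, the smallest adjusted p of any gene on these lists (4.28 ± 0.68 for Fr2 minus Fr3, adjusted p = 0.130). Like the neutrophil genes, and unlike the Csf3r probe, it had its highest mean in Fr2. Irf8, a factor of dendritic cells and monocytes, had 1.67 and 0.88 in Fr1, 0.10 and -0.94 in Fr2, and -0.55 and -0.35 in Fr3. Both Fr1 arrays of Irf8 lay above all others, and Fr2 and Fr3 overlapped.

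Of 8 target genes of these receptors, 7 were tested. Osm, which encodes the cytokine oncostatin M, had 2.96 and 3.00 in Fr1, 4.89 and 5.43 in Fr2, and 3.70 and 4.02 in Fr3, and Fr1 minus Fr2 was -2.18 ± 0.54 (limma, adjusted p = 0.336). The survival genes Bcl2 and Mcl1 had differences between -1.12 and 0.68 in the 3 comparisons. Over the 64 tested genes of the 6 lists, the arrays did not overlap in 34 for Fr1 minus Fr2, in 30 for Fr1 minus Fr3 and in 36 for Fr2 minus Fr3, where the shares of all genes were 45%, 35.6% and 42%.

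**Figure D5:**
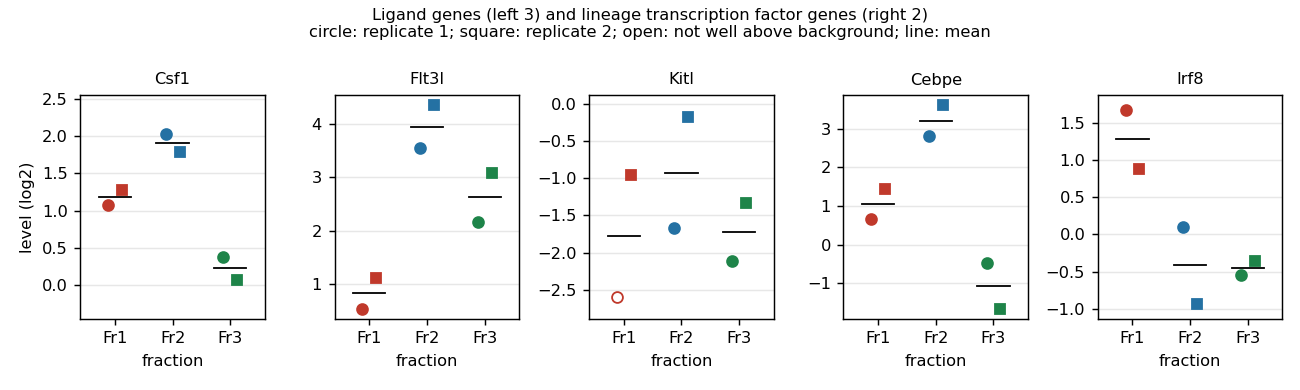
Level of the 3 tested ligand genes and of 2 lineage transcription factor genes on the 6 arrays (vertical axis, log2 with its own range per gene; horizontal axis, fraction; circles replicate 1, squares replicate 2, open symbols not well above background, lines means). Flt3l is lowest in Fr1 at 0.53 and 1.11, Csf1 lowest in Fr3, Cebpe highest in Fr2 and Irf8 highest in Fr1.

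The genes with profiles most like each receptor were found by the root mean square difference between mean-centred levels over the 6 arrays, among 12886 named genes. Kif1c, App and Arhgef40 were nearest to Csf1r, at 0.10, 0.11 and 0.18 log2 units, where the standard deviation of Csf1r itself was 0.95. For Kit the nearest were Smim3, Lrrc71 and Zswim9, at 0.20, 0.29 and 0.29, with a standard deviation of 0.99 for Kit. The nearest genes to Csf2rb were Arhgap4, Cyb5r4 and Zc3h12a, at 0.15, 0.17 and 0.18. Those nearest to Csf2ra were Dnajc2, Pptc7 and Kprp, at 0.13, 0.14 and 0.15.

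Flt3, Csf3r and Il3ra varied little over the arrays, with standard deviations of 0.38, 0.32 and 0.36. Their nearest genes were Map1s, Grik1 and Serpinh1 for Flt3 (0.08 to 0.10), Ptges, Sbf2 and Oas1b for Csf3r (0.08 to 0.09), and Ctdsp1, Prpf38b and Bpifa5 for Il3ra (0.07 to 0.12). None of these 21 genes was a listed ligand, signal transducer or cell type marker. With 6 arrays and this many candidates, close profiles are a description only.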

How the data were processed

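RNA of each sort was amplified and labelled with Cy3, per the labels' protocols, and hybridised to 1-colour Agilent arrays of 60-base probes. Per the file headers, the authors made the spot intensity values with version 11.5.1.1 of Agilent's Feature Extraction, including background subtraction, detrending and surrogates for spots too dim to measure. Coordinates are on mm9. The authors' deposited log2 table correlated with the scanner values at r of at least 0.99993 and served as an alternative. No source used here says how it was made.

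Spots of a probe were averaged, 4 probes with an outlier flag were left out, and log2 levels were set to the array's 75th percentile. Of the probes, 32994 were named through an accession, 10224 through a symbol and 520 through a synonym in a RefSeq table, and 12867 kept the file's name. Probes had to be well above background on both arrays of some fraction, which kept 27867, with the brightest per gene (5123 genes had over 1). limma 3.58.1 in R 4.3.3 fitted 3 fraction means over 6 arrays, with eBayes and Benjamini-Hochberg adjustment, and was tested on simulated data; tables used Python 3.11.15. The number of arrays limits precision. Nothing in the labels beyond the independent experiments says what separates replicates, so p-values measure the spread between these arrays.

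Described were the 7 receptors with all probes, the 3 genes per pathway list with the smallest F-test p (2 of these genes are not reported here), and the 3 genes with the profile nearest to each receptor. The receptors and lists were chosen with earlier results of these data known. Alternatives were another background correction, quantile normalization, the deposited table, other filters and probe rules, leaving out T-rich probes, the slide, the replicate number as a block, and leaving out each array. No genome or annotation of this build was used, so exons and UTRs are not named.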

Additional observations from a re-analysis of the deposited data

How the results depend on the processing

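No receptor was called in any comparison under any alternative, and the smallest adjusted p of a receptor was 0.312, against 0.524 as reported. Of 316 alternative differences, 295 kept their direction and 21 turned, 14 of them on leaving out an array; the cause was not tested. With normexp, Csf2rb and Il3ra turned for Fr1 minus Fr3 (-0.038 and -0.058) and Flt3 for Fr1 minus Fr2 (0.0092). With the mean of a gene's probes, Csf2rb turned for Fr1 minus Fr3 (-0.18) and Fr2 minus Fr3 (-0.0052), and Il3ra for Fr1 minus Fr2 (0.25) and Fr2 minus Fr3 (-0.11). Leaving out each array in turn gave -1.82 to 0.10 for Csf1r, -0.63 to 0.17 for Flt3, -0.70 to 0.13 for Il3ra and -0.30 to 1.09 for Kit for Fr1 minus Fr2. For Fr1 minus Fr3 it gave -0.75 to 0.67 for Csf2ra, -0.50 to 0.75 for Csf2rb, -0.33 to 0.37 for Flt3 and -0.26 to 0.57 for Il3ra. For Fr2 minus Fr3 it gave -1.69 to 0.23 for Csf1r, -0.084 to 1.34 for Csf2ra and -0.15 to 0.65 for Flt3. Among differences that kept their direction, it gave 0.76 to 2.15 for Kit, 0.37 to 1.62 for Csf2rb and 0.23 to 0.65 for Il3ra for Fr2 minus Fr3, and -1.25 to -0.48 for Csf2rb and -1.004 to -0.33 for Csf2ra for Fr1 minus Fr2. Csf3r turned under none of them, nor did Csf1r and Kit for Fr1 minus Fr3.

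Of all genes, 0, 1 and 1 were called for Fr1 minus Fr2, Fr1 minus Fr3 and Fr2 minus Fr3. Leaving out probes over 30% T, which removes Kit and Flt3, gave 7, 12 and 56. For Fr1 minus Fr3, normexp, no filter, every probe as a unit and the 4 arrays that share a slide each gave 0. For Fr2 minus Fr3, normexp gave 7 and probes above background on all arrays 14. Leaving out each array gave 0 to 3, 0 to 1395 and 0 to 933, the highest without the first Fr3 array (for Fr1 minus Fr2, without either Fr3 array); a fraction left with 1 array is then assumed to vary like the others. With the replicate number as a block, 0 genes were called in each comparison, and receptors' calls did not change. Deviations of same-numbered arrays correlated at 0.118 (Fr1 and Fr2), 0.433 (Fr1 and Fr3) and 0.0458 (Fr2 and Fr3), so the numbers were not shown to pair the arrays. The lowest level well above background lay between -2.64 and -1.80 on the arrays, which limits the Flt3 and dimmer Il3ra probes.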
